A study of Arabidopsis thaliana with 6 samples.

Results

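Pectin methylesterases and polygalacturonases are the enzymes that modify and cut homogalacturonan, the galacturonic acid chain of pectin in the plant cell wall. The genes described here are 51 Arabidopsis thaliana loci taken from a given list, 22 for pectin methylesterases and 29 for polygalacturonases of glycosyl hydrolase family 28. A probe set annotated to that locus alone was available for 35 of them, 12 pectin methylesterase and 23 polygalacturonase genes, out of 22746 probe sets tested on the array. Another 2 loci, AT1G05650 and AT1G05660, share 1 probe set, and 14 have no probe set named here.

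The study measured total RNA of whole seedlings on 6 Affymetrix ATH1 arrays, 1 array per sample. Of these, 3 samples were of actin2-5, a mutant allele of the actin gene ACT2 that the labels also call wavy, and 3 were of wild type of the Columbia ecotype. Seedlings of both genotypes were harvested after 8 days on a Murashige and Skoog medium of lowered strength, no treatment is labelled, and the labels call the 3 samples of each biological replicates. The labels give no ecotype for the mutant. The mutated gene, ACT2, was not analysed here, and nothing else checks which genotype an array holds. The series asks how the actin cytoskeleton relates to auxin and brassinosteroid signalling, and the comparison is actin2-5 against wild type.

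Pectin is laid down in the wall in a highly methylesterified form. Pectin methylesterases remove the methyl groups, and the freed acidic chain can either be cross-linked by calcium, which stiffens the wall, or be cut by polygalacturonases and pectate lyases, which loosens it. Inhibitor proteins bind and block pectin methylesterases. Both enzyme families are large, and single members are known from root growth, organ shedding, pod opening, stomata and pollen.

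Among the 35 measured genes 5 differed between the genotypes, 1 higher and 4 lower in actin2-5. The pectin methylesterase gene AT4G02330 (PME41) rose 2.34-fold and the pectin methylesterase gene AT5G04960 fell 2.21-fold. The polygalacturonase genes AT5G14650, AT1G60590 and AT3G06770 fell 2.11-fold, 1.41-fold and 1.30-fold. A call is a limma p-value, adjusted by Benjamini-Hochberg over all 22746 probe sets, under 0.05. Over the whole array 3.3% of probe sets were called, 2.18% higher and 1.11% lower, against 5 of 35 here (14.3%). The loci were listed with calls of these data already known, so this share is a description and carries no test.

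All values are log2 expression values on the authors' RMA scale, and a change is the actin2-5 mean minus the wild-type mean. Array medians lay between 6.42 and 6.46, and lower quartiles between 4.49 and 4.58. Correlations of arrays over all probe sets were at least 0.9967 among mutants, 0.9938 among wild types and 0.9902 across genotypes. The 25S ribosomal RNA control set actin2-5 arrays 1 and 3 apart, at 10.63 and 9.82, against 7.75 on actin2-5 array 2 and 8.13 to 8.21 in wild type. Values with that control as a covariate, and without arrays 1 and 3, stand beside the calls of the genes below that they end. Both high arrays are actin2-5, so the covariate partly follows genotype and tends to widen the SE of a change. A call lost in either fit therefore does not show a part of the 25S signal, which was not tested.

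Of the 12 measured pectin methylesterase genes, 1 rose, 1 fell and 10 did not pass the test. The called share was 16.7%, against 3.3% of all probe sets, a description without a test. AT4G02330, which RefSeq names ATPMEPCRB with the synonym PME41, read 8.22, 8.39 and 8.47 on actin2-5 arrays 1, 2 and 3, and 6.97, 7.12 and 7.31 on wild-type arrays 1, 2 and 3. Every actin2-5 array lay above every wild-type array, and the gap between the groups was wider than the range within either. The mutant mean was 8.36 ± 0.13 and the wild-type mean 7.13 ± 0.17 (SD, n = 3), a change of 1.23 ± 0.11 (SE; limma adjusted p = 0.000244). It stayed called in each of the alternatives run, with changes from 1.145 without wild-type replicate 1 to 1.315 without wild-type replicate 3.

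AT5G04960 moved in the other direction. It read 6.46, 5.99 and 6.25 in actin2-5 and 7.0, 7.48 and 7.66 in wild type, so the groups did not overlap. The means were 6.23 ± 0.24 and 7.38 ± 0.34 (SD, n = 3), a change of -1.15 ± 0.17 (SE; limma adjusted p = 0.00482). Wild-type array 1 was the lowest of its group, and without it the change was -1.34. The call held without each array in turn and with the 25S covariate (-1.33 ± 0.19, limma adjusted p = 0.0118). It ended when actin2-5 arrays 1 and 3 were both left out, where the change was -1.39 ± 0.25 (limma adjusted p = 0.0975) and rested on 1 actin2-5 array, assumed to vary like the wild type.

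The next gene by p was AT3G49220, a pectin methylesterase gene known from studies of stomata under heat. It read 9.95, 10.10 and 9.98 in actin2-5 and 10.31, 10.23 and 10.44 in wild type. The groups did not overlap, but the change of -0.32 ± 0.09 missed the threshold (limma adjusted p = 0.0998). AT3G10720 read 9.83, 9.83 and 9.76 in actin2-5 and 9.51, 9.74 and 9.70 in wild type, again without overlap. Its change of 0.16 ± 0.09 was not called (limma adjusted p = 0.46). Non-overlapping groups were seen in 4 of the 12 genes, 2 higher and 2 lower in actin2-5, against 19.2% of all probe sets (8.35% higher and 10.8% lower).

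AT5G20860 read 4.45, 4.56 and 4.28 in actin2-5 and 4.55, 4.74 and 4.65 in wild type, and the groups overlapped by a narrow margin (change -0.22 ± 0.10). This probe set is dim, with a mean just above the 25th percentile of all probe sets. The 2 genes not given array by array, AT5G53370 (PMEPCRF) and AT5G09760, were bright, between 8.92 and 9.62 on every array, with changes of 0.15 ± 0.13 and -0.09 ± 0.08.

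**Figure D1:**
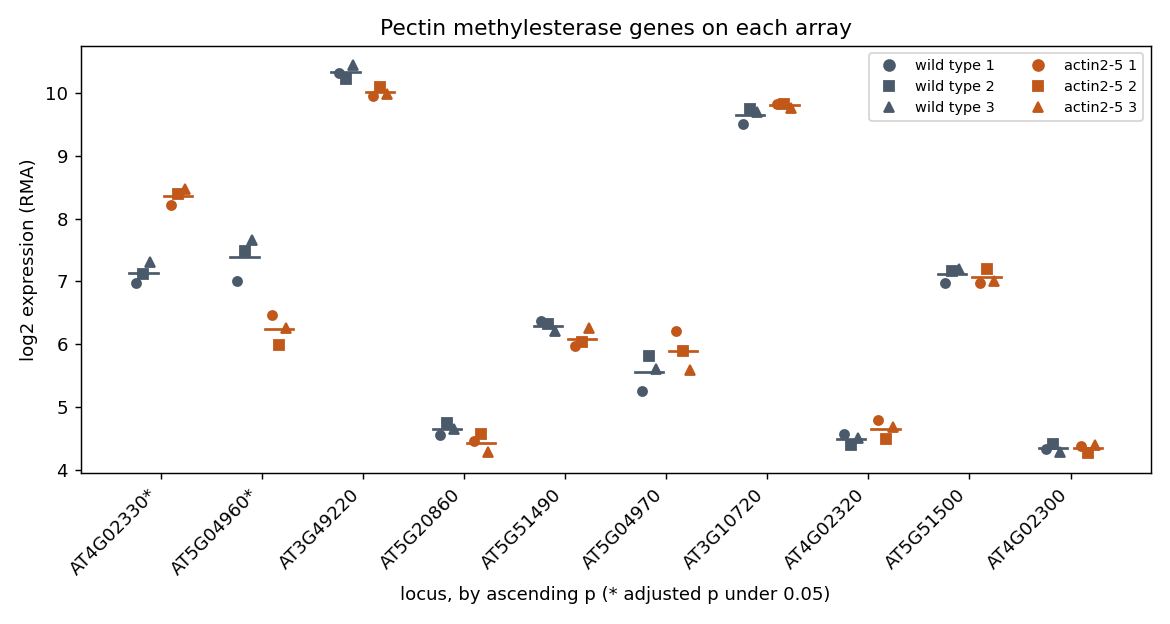
Log2 expression (vertical axis, RMA) of 10 pectin methylesterase genes (horizontal axis, by ascending p) on the 3 wild-type arrays (grey) and 3 actin2-5 arrays (orange). Symbols mark the replicate number and bars the group means; AT4G02330 sits higher and AT5G04960 lower in actin2-5 on every array, and the other genes differ by at most 0.34 in their means.

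Several members are neighbours in the genome, and no neighbouring pair had both genes called. AT5G04970 lies directly next to AT5G04960 in the RefSeq gene order, with no protein-coding gene between them. It read 6.21, 5.89 and 5.58 in actin2-5 and 5.25, 5.81 and 5.6 in wild type. The groups overlapped, and its change of 0.34 ± 0.17 (limma adjusted p = 0.39) had the opposite sign to that of AT5G04960. The difference between the 2 changes was not tested.

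AT4G02320 lies directly next to AT4G02330, and AT4G02300 (PME39) lies on the other side of AT4G02320 with 1 gene between. AT4G02320 read 4.79, 4.48 and 4.68 in actin2-5 and 4.56, 4.39 and 4.51 in wild type, with overlap (change 0.16 ± 0.10). AT4G02300 read 4.37, 4.26 and 4.39 in actin2-5 and 4.33, 4.40 and 4.28 in wild type, a change of 0.0033 ± 0.0828 whose sign turned with median centring. Both probe sets are dim, near or under the arrays' lower quartile, so little can be read from their missing calls. Of the 3 genes, AT4G02330 had the one probe set well above that level.

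AT5G51490 and AT5G51500 form another adjacent pair. AT5G51490 read 5.97, 6.04 and 6.25 in actin2-5 and 6.36, 6.32 and 6.20 in wild type (change -0.21 ± 0.10). AT5G51500 read 6.98, 7.20 and 7.01 in actin2-5 and 6.97, 7.16 and 7.20 in wild type (change -0.05 ± 0.10). In both pairs of groups the arrays of the genotypes interleaved, and neither gene was called.

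Of the 23 measured polygalacturonase genes, 3 fell, 0 rose and 20 did not pass the test. The called share was 13%, against 3.3% of all probe sets, again a description without a test. At an unadjusted p under 0.05 there were 5 genes, against 15.3% of all probe sets. AT5G14650, a polygalacturonase known from root tissue, read 5.30, 5.53 and 4.93 in actin2-5 and 6.10, 6.61 and 6.28 in wild type. The lowest wild-type array was above the highest actin2-5 array by more than the SD of either group. The means were 5.25 ± 0.30 and 6.33 ± 0.26 (SD, n = 3), a change of -1.08 ± 0.16 (SE; limma adjusted p = 0.00565).

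The fall of AT5G14650 was called without each array in turn, with changes from -1.22 to -0.92. With the 25S covariate it was -0.92 ± 0.20 and no longer called (limma adjusted p = 0.0699). Without actin2-5 arrays 1 and 3 it was -0.80 ± 0.21 (limma adjusted p = 0.325). On actin2-5 array 2, where 25S signal was low, the gene read 5.53, the highest of the mutant arrays and below all wild-type arrays. That is 1 array, and the part of the 25S signal in the fall was not tested.

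AT1G60590 read 6.25, 6.60 and 6.52 in actin2-5 and 6.95, 6.90 and 7.02 in wild type. The groups did not overlap, and actin2-5 array 1 was the lowest. Its change was -0.50 ± 0.10 (SE; limma adjusted p = 0.026). AT3G06770 read 7.88, 7.78 and 7.86 in actin2-5 and 8.28, 8.15 and 8.21 in wild type, with a tight spread in both genotypes (SD 0.05 and 0.07, n = 3). Its change was -0.37 ± 0.08 (limma adjusted p = 0.035).

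The calls of AT1G60590 and AT3G06770 each held in 1 of the 6 fits that left out 1 array. Across those fits the changes stayed at -0.57 to -0.40 and -0.41 to -0.34. Both calls were lost without actin2-5 replicate 1, 2 or 3 and without wild-type replicate 1 or 3, and both were kept without wild-type replicate 2. Over those 5 losses the adjusted p lay between 0.0522 and 0.0925 for AT1G60590 and between 0.071 and 0.197 for AT3G06770. With the 25S covariate the changes were -0.37 ± 0.12 (limma adjusted p = 0.243) and -0.42 ± 0.11 (limma adjusted p = 0.133), and without actin2-5 arrays 1 and 3 they were -0.36 and -0.43 (limma adjusted p = 0.681 and 0.524). Both genes kept a negative sign in every alternative run.

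AT4G33440 read 5.91, 5.58 and 5.64 in actin2-5 and 6.01, 6.33 and 5.90 in wild type. Its actin2-5 array 1 was just above wild-type array 3, and the change of -0.37 ± 0.13 was not called (limma adjusted p = 0.184). AT1G10640 read 6.52, 6.49 and 6.47 against 6.74, 6.54 and 6.66, without overlap but with a small change of -0.15 ± 0.08. AT1G48100 (known as PGX3, which acts in stomatal development and opening) read 6.05, 5.93 and 6.04 against 6.34, 5.98 and 6.26, and the groups overlapped (change -0.19 ± 0.10).

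**Figure D2:**
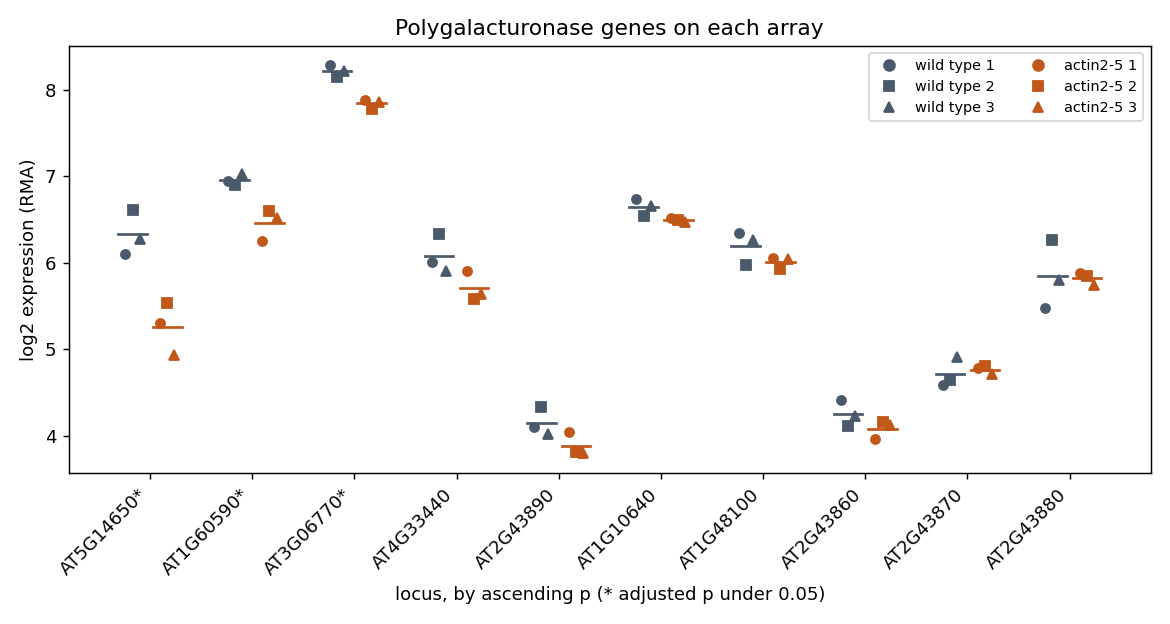
Log2 expression (vertical axis, RMA) of 10 polygalacturonase genes (horizontal axis, by ascending p) on the 3 wild-type arrays (grey) and 3 actin2-5 arrays (orange), with symbols for the replicate number and bars for group means. AT5G14650, AT1G60590 and AT3G06770 are lower in actin2-5 on every array, and the groups of AT4G33440 touch.

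A cluster of 4 polygalacturonase genes, AT2G43860, AT2G43870, AT2G43880 and AT2G43890, lies within a short stretch of the gene order with 1 other gene between the first and the second. AT2G43890 read 4.04, 3.81 and 3.80 in actin2-5 and 4.1, 4.34 and 4.02 in wild type (change -0.27 ± 0.11, limma adjusted p = 0.268). AT2G43860 read 3.96, 4.16 and 4.13 against 4.42, 4.12 and 4.23 (change -0.17 ± 0.10). Both are dim, under the 25th percentile, and in both the groups overlapped.

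Of the middle genes of the cluster, AT2G43870 read 4.78, 4.81 and 4.71 in actin2-5 and 4.59, 4.65 and 4.91 in wild type (change 0.05 ± 0.10). AT2G43880 read 5.88, 5.85 and 5.74 in actin2-5 and 5.48, 6.26 and 5.80 in wild type, where array 2 was the highest and array 1 the lowest of all 6. Its change of -0.02 ± 0.16 turned sign without wild-type replicate 2. None of the 4 genes was called.

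The 13 polygalacturonase genes not given array by array lay between 3.54 and 9.22 and changed by -0.32 to 0.16, with adjusted p from 0.477 to 0.972. They include ADPG1 (AT3G57510), which acts in pod opening, with a dim signal at 3.54 to 3.68 and a change of -0.05 ± 0.08. NIMNA (AT2G33160), a polygalacturonase of the early embryo, was also dim (change -0.08 ± 0.10). The brightest, AT4G23820 and AT3G57790, changed by 0.03 ± 0.11 and 0.01 ± 0.08. AT1G23460 is read by a probe set of the type that can match related transcripts, so its change of 0.10 ± 0.12 may hold signal of another gene. The probe set shared by AT1G05650 and AT1G05660 read 6.30, 6.40 and 6.20 in actin2-5 and 6.11, 6.48 and 6.37 in wild type, a change of -0.02 ± 0.11 that cannot be divided between them.

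**Figure D3:**
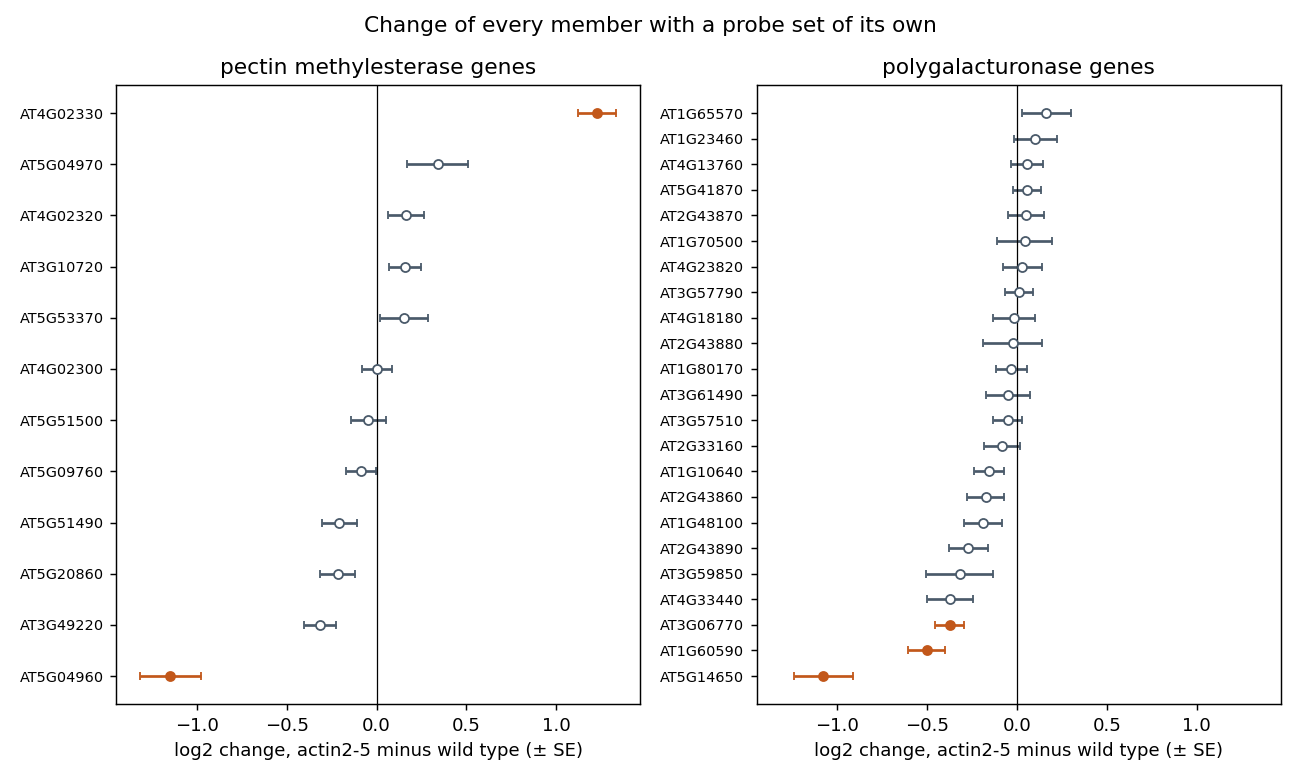
Log2 change, actin2-5 minus wild type, with its SE (horizontal axis), of the 12 pectin methylesterase genes (left) and 23 polygalacturonase genes (right) that have a probe set of their own. Filled orange points passed an adjusted p of 0.05; the called pectin methylesterase genes lie at opposite ends, at 1.23 and -1.15, and the 3 called polygalacturonase genes at the low end, between -1.08 and -0.37.

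The families' medians were near that of the whole array. The median change was -0.02 over the 12 pectin methylesterase genes and -0.05 over the 23 polygalacturonase genes, against -0.03 over all probe sets. The pectin methylesterase median was 0 after repeated quantile normalization and 0.0067 without wild-type replicate 2. Changes were below 0 in 6 of 12 pectin methylesterase and 15 of 23 polygalacturonase genes, against 57.5% of all probe sets. All 3 actin2-5 arrays lay below the wild-type mean in 4 pectin methylesterase and 10 polygalacturonase genes, and all 3 above it in 3 and 3. The same count was not taken over all probe sets, so these counts have no array-wide share to be read against. The groups did not overlap in 5 of the 23 polygalacturonase genes, against 19.2% of all probe sets. Of these 5, 4 were lower in actin2-5, against 10.8% lower over all probe sets.

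Many of the probe sets were dim. Of the pectin methylesterase genes 5 of 12 had a mean under the median of all probe sets, and of the polygalacturonase genes 17 of 23, with 6 under the 25th percentile. Of the 13 members at or above the median 4 were called, against 4.59% of all such probe sets. Of the 22 below it 1 was called, AT5G14650, against 228 of all 11375 such probe sets. In whole seedlings fewer cells of a type and less RNA per cell cannot be told apart.

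Other genes acting on pectin were taken from lists written with earlier results of these data known. Of 17 measured pectin methylesterase inhibitor genes, out of 24 listed, 1 fell and 0 rose. AT1G23205 read 7.25, 7.10 and 6.97 in actin2-5 and 7.80, 7.92 and 8.02 in wild type, without overlap, and fell by 0.81 ± 0.10 on the log2 scale (SE; limma adjusted p = 0.00175), or 1.75-fold. That call held without each array in turn and with the 25S covariate, and ended without actin2-5 arrays 1 and 3 (-0.81 ± 0.15, limma adjusted p = 0.112). The 1 of 17 called compares with 3.3% over the whole array. The next by p went both ways, with AT3G47380 at 0.42 ± 0.11 and AT2G01610 at -0.37 ± 0.10 (limma adjusted p = 0.0721 and 0.0728). At an unadjusted p under 0.05 there were 10 of 17, in both directions, against 15.3% of all probe sets, and the median change was -0.06.

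Of 23 measured pectate lyase-like genes, whose enzymes cut demethylesterified pectin by another reaction, 0 were called by limma, and 6 had an unadjusted p under 0.05, against 15.3% of all probe sets. AT1G67750 was at -0.42 ± 0.11 (limma adjusted p = 0.0653), AT5G48900 at -0.31 ± 0.10 and AT4G24780 at -0.27 ± 0.10, each without overlap between the groups. The groups of 9 of the 23 genes did not overlap, all lower in actin2-5, against 10.8% of all probe sets, and the median change was -0.11. Of 6 measured pectin acetylesterase genes 0 were called by limma and 2 had an unadjusted p under 0.05, against the same 15.3%, AT1G57590 at -0.32 ± 0.08 and AT5G26670 at -0.24 ± 0.08. The homogalacturonan synthesis gene GAUT15 was at -0.02 ± 0.08 and the receptor kinase gene FER, whose product binds pectin, at -0.0033 ± 0.1264, the 1 measured gene of each list. Polygalacturonase inhibitor genes were not analysed here.

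**Figure D4:**
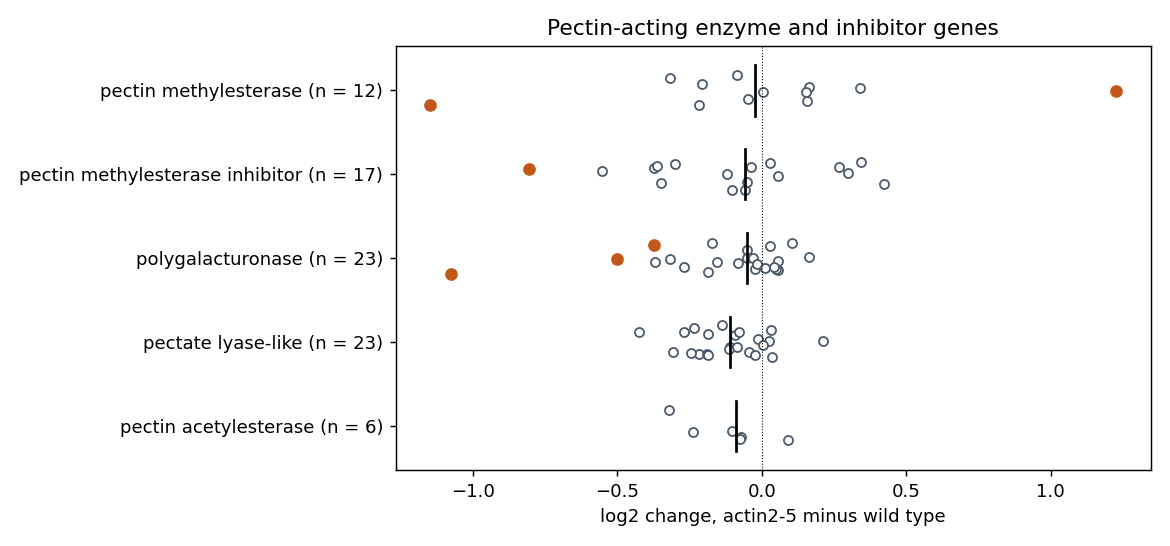
Log2 change, actin2-5 minus wild type (horizontal axis), of each measured gene in 5 groups of pectin-acting enzymes and inhibitors (rows, points spread vertically for clarity). Filled orange points passed an adjusted p of 0.05 and black bars are medians, which lie between -0.11 and -0.02; 6 genes were called, 5 of them lower in actin2-5.

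Root hair markers also differed between the genotypes. Of 10 listed root hair markers 2 were measured, the expansin genes EXPA7 and EXPA18, and both fell, by 0.86 ± 0.14 and 0.95 ± 0.15. With the 25S covariate the changes of EXPA7 and EXPA18 were -0.87 ± 0.19 and -0.95 ± 0.20 and missed the threshold (limma adjusted p = 0.0769 and 0.062), as they did without actin2-5 arrays 1 and 3 (limma adjusted p = 0.394 and 0.356). EXPA7 also missed it without actin2-5 replicate 2 (limma adjusted p = 0.0545) or 3 (limma adjusted p = 0.0576). Their mean level was 6.58, 6.54 and 6.46 on actin2-5 arrays 1, 2 and 3 and 7.06, 7.54 and 7.70 on wild-type arrays 1, 2 and 3. Wild-type array 1 was the lowest of its group for both expansin genes, as for the lower genes AT5G04960 and AT5G14650 and the higher gene AT4G02330. It was the highest for AT3G06770 and the middle one for AT1G60590. The root markers PYK10 and NAI2 were at 0.09 ± 0.08 and -0.27 ± 0.11, neither called. The groups did not overlap for either, PYK10 higher and NAI2 lower in actin2-5, as for 19.2% of all probe sets. The 4 leaf photosynthesis markers averaged 13.11 to 13.18 in actin2-5 and 13.15 to 13.29 in wild type, and 0 were called. Changes were below 0 in 3 of the 4, against 57.5% of all probe sets. The groups did not overlap for 1 of the 4, LHCB4.2, which was lower in actin2-5 (change -0.12 ± 0.08). The part of root hair number in the lower pectin genes was not tested.

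**Figure D5:**
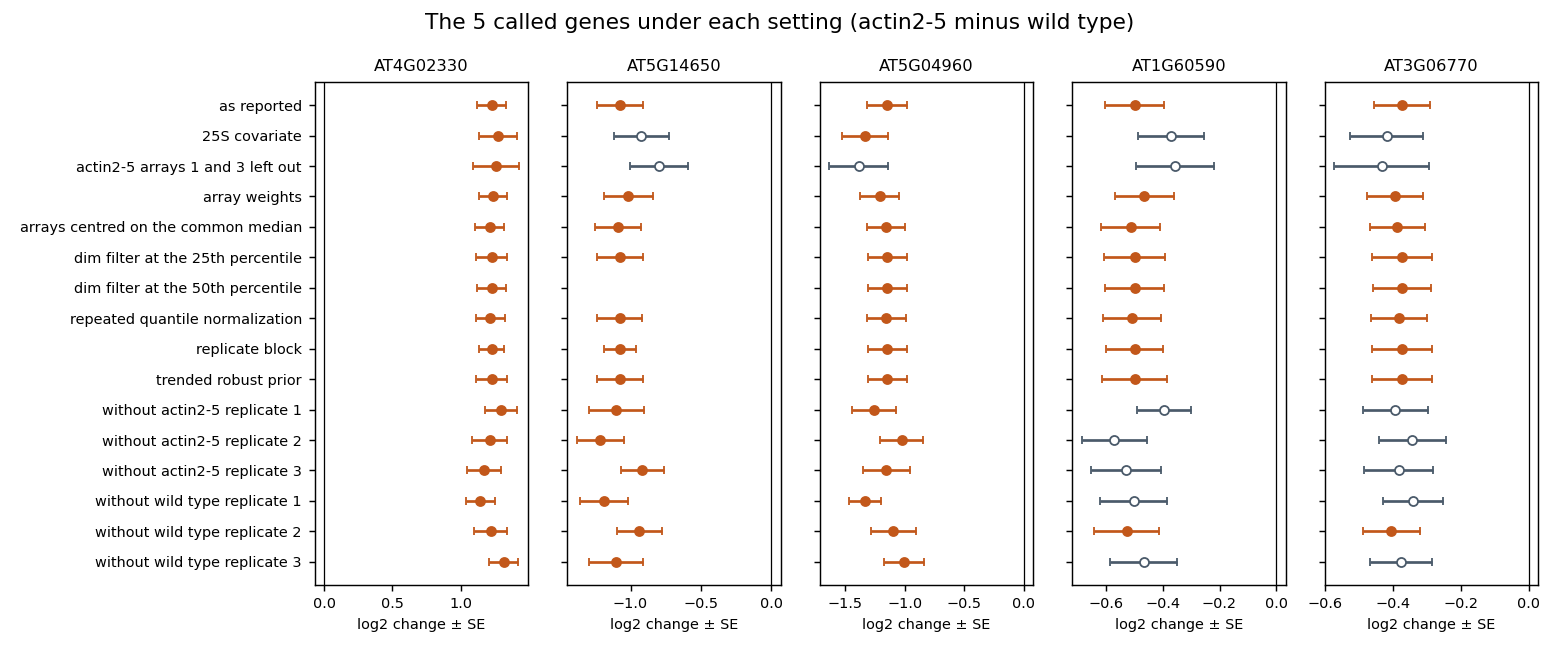
Log2 change with its SE (horizontal axes, each panel with its own scale and a line at 0) of the 5 called genes in the reported fit and under each alternative (rows). Filled orange points passed an adjusted p of 0.05; AT4G02330 passed in every row, AT5G04960 in all but 1, AT5G14650 missed it in 2 and was not tested in 1, and AT1G60590 and AT3G06770 missed it in 7 each.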

How the data were processed

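The deposited log2 expression values were made by the authors with RMA in the affy package, per the submitters' processing notes. Software versions and the probe set definition used are unknown here. Values ran from 3.08 to 14.15 on 22810 probe sets, and 64 control probe sets were left out. Probe sets were named from the platform annotation, with symbols from RefSeq's TAIR10.1 table matched on gene identifiers, which served for names and gene order only: 13513 had 1 gene (13436 found in that table), 503 had several and 8730 none listed. Sequences were not used here.

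The comparison used lmFit and eBayes of limma 3.58.1 (R 4.3.3) with two-sided tests, without a replicate block, with Benjamini-Hochberg adjustment over 22746 probe sets. The 3 arrays per group limit the precision. Members, gene lists, alternatives and the naming rule were chosen with earlier results of these data known. The rule gives array values for called members, the 8 smallest p of each enzyme group and neighbouring members, 20 genes in all; of other lists it names called genes and up to 3 with the smallest p. On 5 simulated sets of 22746 probe sets, limma recovered 53.6% of 200 changed 1.5-fold and 92.1% of 200 changed 2-fold. Same-numbered arrays' deviations correlated at 0.0619, 0.0866 and 0.0833, and the labels do not pair them. Figures were drawn with matplotlib 3.10.9.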

Additional observations from a re-analysis of the deposited data

How the results depend on the processing

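The 750 called probe sets became 283 with the 25S covariate, 103 without actin2-5 arrays 1 and 3, 323 at adjusted p under 0.01, and 290 to 896 when 1 array was left out. The pectin methylesterase calls, 2 as reported, were 1 without actin2-5 arrays 1 and 3 and 2 in each leave-one-out fit. The polygalacturonase calls, 3 as reported, were 0 with the 25S covariate, 0 without arrays 1 and 3, 1 at adjusted p under 0.01 and 1 to 3 when 1 array was left out. The stricter threshold lowers counts by construction. The fit without arrays 1 and 3 rests on 1 actin2-5 array, so it is less precise whatever the 25S signal. The part of the 25S signal in the lower counts, and the causes of the other shifts, were not tested. With the replicate block 907 probe sets were called, and the same 5 member genes: AT4G02330, AT5G04960, AT5G14650, AT1G60590 and AT3G06770. Of the other named genes, AT1G23205 lost its call in 1 alternative, EXPA18 in 2 and EXPA7 in 4, with no change of sign. The filter at the 50th percentile left out AT5G14650, so it gave no value for that gene. None of the 5 changed sign in any alternative, and no other member was called in any. Uncalled members near 0 turned sign: AT4G02320 was at -0.0067 without arrays 1 and 3; AT5G51500 at 0.0515 with the covariate and 0.09 without arrays 1 and 3; AT4G02300 at -0.0479, -0.0767 and -0.01 with the covariate, without arrays 1 and 3 and with median centring; AT2G43880 at 0.0033 without arrays 1 and 3 and 0.0237 with array weights. Leaving out 1 array gave ranges of -0.025 to 0.0433 for AT4G02300, -0.0133 to 0.147 for AT2G43870 and -0.207 to 0.183 for AT2G43880. In simulation 53.6% of 1.5-fold changes were recovered with 3 arrays a group, and for probe sets under the lower quartile a missing call says little.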
